A study of Mus musculus with 6 samples.

Results

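The 10 genes described here encode Krüppel-like factors (KLFs) studied for their effects on axon growth, *Klf2*, *Klf3*, *Klf4*, *Klf5*, *Klf6*, *Klf7*, *Klf9*, *Klf10*, *Klf13* and *Klf16*. They were taken by name, with no threshold on their values, from the 55573 gene identifiers of a table of raw RNA-Seq read counts. Each symbol matched 1 identifier, and all 10 genes passed the filter on low counts. The libraries came from adult C57BL/6J mice of both sexes, and the cells were dissociated from the retina and sorted as live cells positive for CD90.2 (the *Thy1* product). The sort was meant to enrich retinal ganglion cells (RGCs), whose axons form the optic nerve. In the control group, an adeno-associated virus carrying *GFP* (AAV2-*GFP*) was injected into the vitreous. In the other group the virus carried *Ezh2* (AAV2-*Ezh2*), which encodes the histone methyltransferase of Polycomb repressive complex PRC2. Every animal of both groups received an optic nerve crush (ONC) 2 weeks after the virus, and cells were sorted 3 days after the crush, so no uninjured group was compared here. Since this virus is not restricted to RGCs, the transgene may be expressed in further retinal cell types.

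KLFs are zinc finger transcription factors that bind GC-rich and CACCC sequences in promoters. They differ mainly in the domains outside the zinc fingers, through which some recruit activators and others the corepressors CtBP or Sin3A. In RGCs and cortical neurons, *Klf4* and *Klf9* are known as suppressors of axon growth, while *Klf6* and *Klf7* are known to promote it. The comparison therefore asked whether *Ezh2* overexpression after injury was accompanied by a change of either pair, or of the other family members, in the sorted cells.

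There were 3 libraries in each group, with total counts of 30569933 to 35971192. Levels are given in CPM, counts scaled to a common library total. *Ezh2* itself reached 28.8, 34.6 and 33.0 CPM in the GFP libraries and 78.0, 65.3 and 104.8 CPM in the Ezh2 libraries. The gene therefore followed the labels in all 6 libraries. The study left out 1 Ezh2 library after clustering, which is inferred here to be Ezh2 replicate 3. Comparisons therefore rest on 5 libraries (all GFP libraries with Ezh2 replicates 1 and 2), and values over all 6 libraries stand beside them. Against the label of RGC-enriched cells, the RGC markers were low. Their summed level was 143 to 146 CPM in the GFP libraries and 164 to 179 CPM in the Ezh2 libraries, of which *Thy1* gave 87.2 to 113.8 CPM. The defining RGC factor *Pou4f2* did not exceed 0.0932 CPM in any library, which is 3 counts. Markers of Müller glia summed to between 10419 and 17448 CPM. The cells are therefore called sorted retinal cells here. In such bulk samples, fewer cells of a type and less RNA per cell cannot be told apart.

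Promoter sequences are shown for *Klf2*, the member with the largest change among those that passed the test, and for 3 of the 4 factors of the growth-promoting and growth-suppressing pairs. They are RefSeq sequences of the mouse build GRCm38.p6, and 7 of the 10 members matched the RefSeq promoter table. Each begins 250 bases before the RefSeq start and was ended at the annotated start of the gene or before it. The *Klf7* window lay inside the annotated gene and is not shown. Capitals mark matches, on either strand, to TGACG (the core of the site bound by cAMP-responsive factors) or to the site of MEF2, the factor through which the kinase ERK5 induces *Klf2*, and *Klf6* held neither.
*Klf2*, chr8:72318812-72319032, plus strand: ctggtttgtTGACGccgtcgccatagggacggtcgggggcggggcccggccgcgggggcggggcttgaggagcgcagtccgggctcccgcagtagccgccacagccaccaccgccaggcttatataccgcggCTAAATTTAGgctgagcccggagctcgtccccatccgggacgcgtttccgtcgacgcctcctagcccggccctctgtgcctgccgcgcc
*Klf4*, chr4:55532476-55532725, minus strand: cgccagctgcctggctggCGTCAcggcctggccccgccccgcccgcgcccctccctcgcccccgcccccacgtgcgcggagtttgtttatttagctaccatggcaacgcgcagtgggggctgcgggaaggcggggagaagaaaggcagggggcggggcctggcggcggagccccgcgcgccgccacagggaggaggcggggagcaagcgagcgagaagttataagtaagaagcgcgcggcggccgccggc
*Klf6*, chr13:5861239-5861481, plus strand: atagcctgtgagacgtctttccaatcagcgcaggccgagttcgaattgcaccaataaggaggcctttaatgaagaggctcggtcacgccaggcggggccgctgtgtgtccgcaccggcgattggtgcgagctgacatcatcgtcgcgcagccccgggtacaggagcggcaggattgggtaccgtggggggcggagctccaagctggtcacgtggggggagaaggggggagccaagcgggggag
*Klf9*, chr19:23140976-23141225, plus strand: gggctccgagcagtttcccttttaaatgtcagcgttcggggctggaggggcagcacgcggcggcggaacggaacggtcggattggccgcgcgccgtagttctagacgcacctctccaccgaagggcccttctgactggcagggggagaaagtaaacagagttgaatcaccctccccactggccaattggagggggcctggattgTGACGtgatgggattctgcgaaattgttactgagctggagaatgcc
The *Klf2* promoter held the only MEF2 site of the 6 windows searched, and such a site was present in 0.508% of 32851 RefSeq promoters. TGACG was found once each in *Klf2*, *Klf4* and *Klf9* and not in *Klf6*, beside 17.8% of all promoters. The GC box GGGCGG, a sequence that KLF and Sp factors bind, occurred 2 times in *Klf2*, 4 times in *Klf4*, 1 time in *Klf6* and 0 times in *Klf9*, beside 32.7% of all promoters with at least 1. CACCC occurred 1 time in *Klf9* and in none of the other 3, beside 52% of all promoters. The CArG box of serum response factor was absent from all 6 windows, and 1.47% of all promoters held it. The shares of all promoters were counted over the first 250 bases of each. The windows of the members were 117 to 250 bases long, as some were cut at the annotated start of the gene. A match describes letters in a window and does not show a bound site.

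Levels of the members were first compared with each other, as CPM per kilobase of annotated exon. In the GFP libraries, *Klf6* was the most abundant at 32.3 ± 1.19 (SD, n = 3), followed by *Klf9* at 25.5 ± 0.410 and *Klf13* at 16.6 ± 0.313. *Klf10* (9.61 ± 0.367) and *Klf3* (9.48 ± 0.241) came next and overlapped. *Klf16* (3.81 ± 0.456) and *Klf2* (3.27 ± 0.526) overlapped as well. *Klf7* lay at 2.07 ± 0.0386 and *Klf4* at 1.49 ± 0.119, and *Klf5*, known mostly from epithelia and smooth muscle, was at 0.123 ± 0.0476. The other neighbours in this order did not overlap in the GFP libraries. A growth promoter and a growth suppressor were thus the 2 most abundant members, while *Klf7* and *Klf4*, their counterparts, were among the 3 least abundant.

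**Figure D1:**
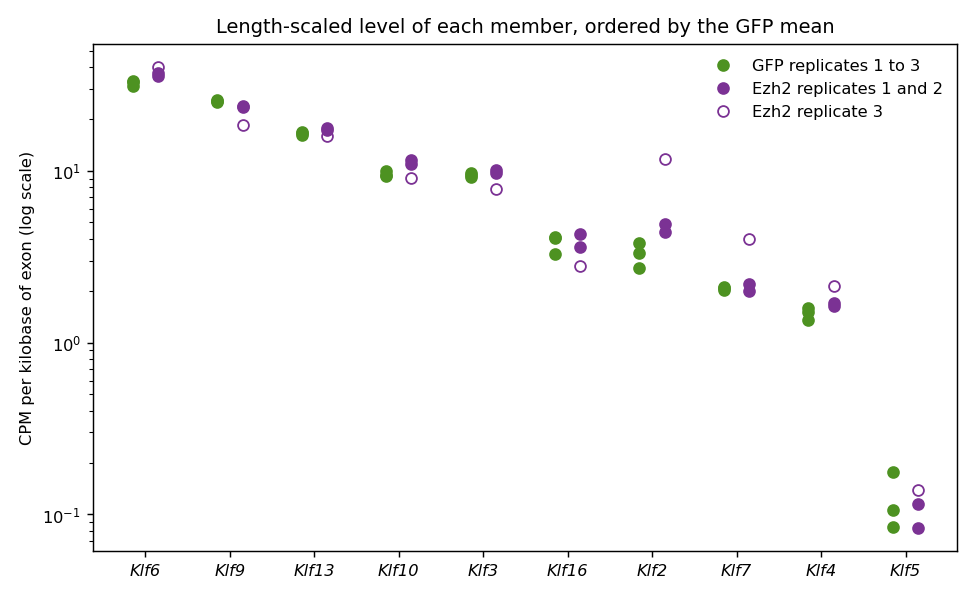
Level of each of the 10 members in CPM per kilobase of exon (vertical axis, log scale), ordered along the horizontal axis by the mean of the 3 GFP libraries. Filled green points are GFP libraries, filled purple points Ezh2 replicates 1 and 2, and open points Ezh2 replicate 3. *Klf6* lies at the top (32.3 in the GFP mean) and *Klf5* at the bottom (0.123). The open points of *Klf2*, *Klf4*, *Klf6* and *Klf7* lie above the rest of their columns.

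With *Ezh2* overexpression, *Klf2*, *Klf6* and *Klf10* rose modestly over 5 libraries, and none of the 10 members passed the study's fold threshold. A call needed more than a 1.5-fold change and an adjusted p below 0.05. By that rule 0 of 10 members were called by edgeR's quasi-likelihood test, by DESeq2 and by limma-voom, beside 3.8% of all 20241 genes tested by edgeR, and 0 of 10 by edgeR over 6 libraries, beside 2.52% of 19732 genes. At an adjusted p under 0.05 alone, 3 of 10 members passed in each of these tools, all higher, beside 17.8% of all tested genes and 10.1% in the higher direction. The same number, 3 of 10, had an unadjusted p under 0.05 in edgeR, beside 29.3% of all genes. Over all 6 libraries 0 of 10 passed the adjusted p (beside 5.78%) and 2 of 10 the unadjusted one (beside 24.5%). The count also rested on single libraries, as it was 0 without GFP replicate 3 or without Ezh2 replicate 2, and 2 without GFP replicate 1 or without Ezh2 replicate 1. The labels do not say whether replicates came from separate animals, so p values measure only the spread between these libraries, which may be technical.

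*Klf2* (ENSMUSG00000055148, chromosome 8, 72319033 to 72321656, GRCm38) encodes a factor that keeps endothelial cells and naive T cells quiescent and is induced by blood flow. Its level in the GFP libraries was 6.12, 6.98 and 5.04 CPM. In Ezh2 replicates 1 to 3 it was 9.01, 8.11 and 21.7 CPM. All Ezh2 libraries were above all GFP libraries, and Ezh2 replicate 3 was 2.54 times the mean of the other Ezh2 libraries. The log2 fold change was 0.51 ± 0.16 (SE) over 5 libraries, with an adjusted p of 0.0273 in edgeR's quasi-likelihood test. With all 6 libraries it was larger and less certain, at 1.15 ± 0.43 and an adjusted p of 0.175. Without GFP replicate 2, *Klf2* also passed the fold threshold, at 0.63. It missed the adjusted p threshold without GFP replicate 3 (0.39, adjusted p = 0.134), without Ezh2 replicate 1 (0.45, adjusted p = 0.177) and without Ezh2 replicate 2 (0.57, adjusted p = 0.0660).

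T cells and endothelial cells both use *Klf2*, and the T cell markers moved with it. The 8 T cell markers summed to 389 to 414 CPM in the GFP libraries and to 525, 493 and 833 CPM in Ezh2 replicates 1 to 3, highest in the library with the most *Klf2*. All 8 were tested over 5 libraries, and 7 were higher at an adjusted p under 0.05, beside 10.1% of all genes. Over 6 libraries 2 of 8 were higher, beside 5.78% of all genes in either direction. Among the 6 endothelial markers 0 passed in edgeR, and 1 had an unadjusted p under 0.05. Their sum was 2316 to 2457 CPM in the GFP libraries and 2186, 2224 and 1752 CPM in Ezh2 replicates 1 to 3. Nearly all of it was *Kdr*, while *Cdh5*, the defining endothelial cadherin, stayed between 2.03 and 3.89 CPM. The part of T cells in the *Klf2* values was not tested.

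*Klf6* (ENSMUSG00000000078, chromosome 13, 5861482 to 5870394) is injury-inducible and promotes axon growth. It was at 146, 143 and 136 CPM in the GFP libraries and at 157, 163 and 176 CPM in Ezh2 replicates 1 to 3. The groups did not overlap with or without Ezh2 replicate 3. The log2 fold change over 5 libraries was small, 0.18 ± 0.05, with an adjusted p of 0.0141 (edgeR) and a 95% interval of 0.07 to 0.29, which lies below the fold threshold. Over 6 libraries it was 0.26 ± 0.08 with an adjusted p of 0.0893. Of the 5 libraries, leaving out GFP replicate 3 or Ezh2 replicate 2 raised its adjusted p in edgeR to 0.0861 and 0.133.

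*Klf10* (ENSMUSG00000037465, chromosome 15, 38291463 to 38300706) encodes a repressor first described as an early target of TGF-beta. Its levels were 39.6, 41.9 and 39.0 CPM in the GFP libraries and 46.0, 48.3 and 37.8 CPM in Ezh2 replicates 1 to 3. Ezh2 replicates 1 and 2 were above the control libraries, whereas Ezh2 replicate 3 was below all of them. In sum the 6 microglia markers lay the same way, at 1190 to 1326 CPM in the GFP libraries. Ezh2 replicates 1 to 3 had 1486, 1559 and 1054 CPM. Over 5 libraries 4 of 6 were higher at the adjusted p, beside 10.1% of all genes, while *P2ry12* and *Tmem119* did not pass. Over 6 libraries 0 of 6 passed, beside 5.78% of all genes in either direction. The part of microglia in the *Klf10* values was not tested. The log2 fold change was 0.24 ± 0.07 over 5 libraries (adjusted p = 0.0187, edgeR) and 0.17 ± 0.10 over 6 (adjusted p = 0.299). Without GFP replicate 1, GFP replicate 3 or Ezh2 replicate 2 of the 5, its adjusted p in edgeR was 0.0552, 0.0739 and 0.187.

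**Figure D2:**
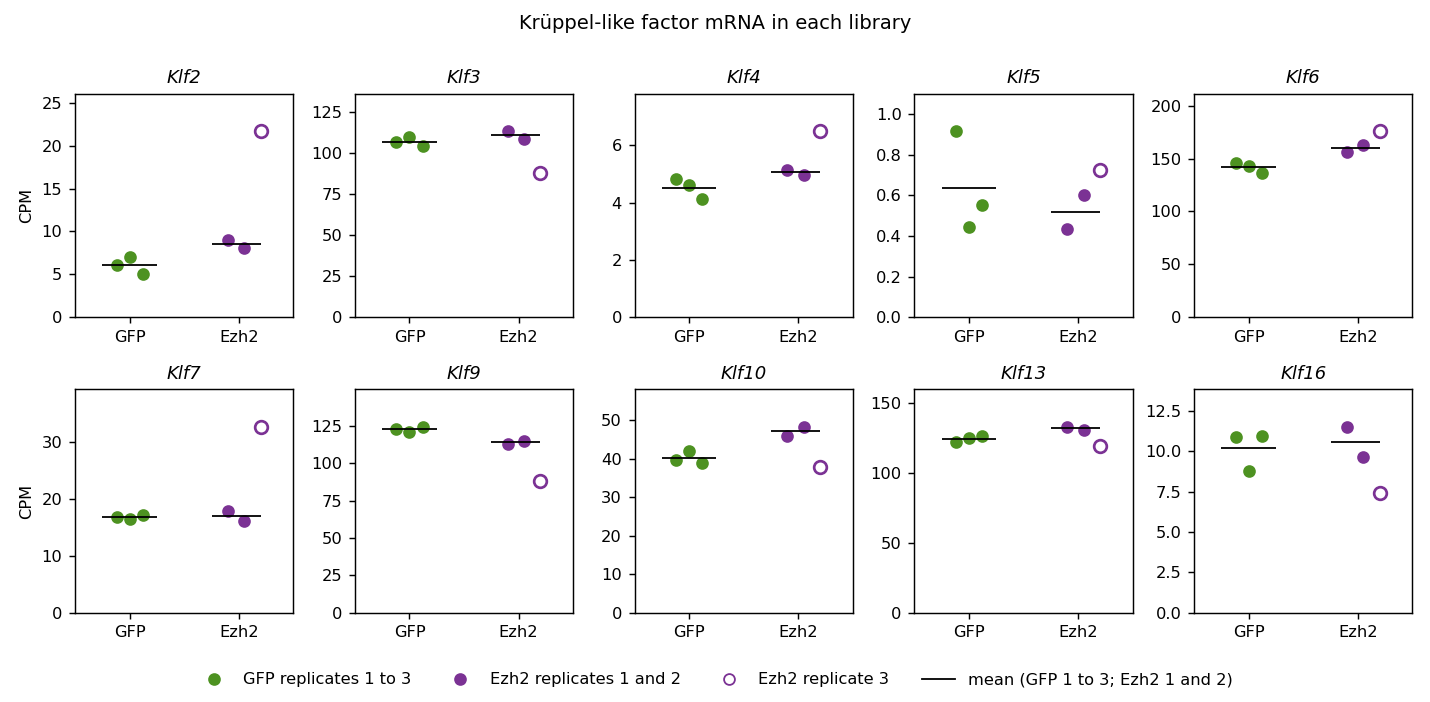
CPM of each member (vertical axis, from 0, one panel per gene) in the GFP and Ezh2 libraries. Each point is 1 library, the open point is Ezh2 replicate 3 and the lines are group means that leave out Ezh2 replicate 3. The open point is the highest for *Klf2* (21.7 CPM), *Klf7* (32.7 CPM), *Klf4* and *Klf6*. It is the lowest for *Klf9* (88.4 CPM), *Klf3*, *Klf10*, *Klf13* and *Klf16*.

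The second growth promoter did not follow *Klf6* in Ezh2 replicates 1 and 2. *Klf7* (ENSMUSG00000025959, chromosome 1, 64029447 to 64122282), a factor of sensory and retinal axon outgrowth, was at 16.9, 16.5 and 17.1 CPM in the GFP libraries and at 17.8, 16.2 and 32.7 CPM in Ezh2 replicates 1 to 3. Ezh2 replicates 1 and 2 enclosed the range of the control group, while Ezh2 replicate 3 was 1.92 times their mean. Over 5 libraries the log2 fold change was 0.02 ± 0.10 (adjusted p = 0.908, edgeR), with a 95% interval from -0.18 to 0.23. Over 6 libraries it was 0.45 ± 0.29 (adjusted p = 0.373), with an interval from -0.24 to 1.15. The gap between both estimates rested on that 1 library, the only one added.

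Neither growth suppressor passed the test, and their fitted changes had opposite signs. *Klf4* (ENSMUSG00000003032, chromosome 4, 55527143 to 55532466), a pluripotency factor that limits RGC axon growth, was at 4.84, 4.61 and 4.13 CPM in the GFP libraries and at 5.15, 4.97 and 6.51 CPM in Ezh2 replicates 1 to 3. The Ezh2 libraries were all above the GFP libraries, by little in Ezh2 replicates 1 and 2. Ezh2 replicate 3 was 1.44 times the GFP mean. The log2 fold change was 0.17 ± 0.19 (adjusted p = 0.613, edgeR, 5 libraries) with a 95% interval from -0.22 to 0.56, and 0.34 ± 0.19 over 6 libraries (adjusted p = 0.303). Its counts per library, 127 to 234, were among the lowest of the members.

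*Klf9* (ENSMUSG00000033863, chromosome 19, 23141226 to 23168134), which is induced by glucocorticoids and thyroid hormone and rises as RGCs mature, was at 123.0, 120.7 and 124.6 CPM in the GFP libraries. In Ezh2 replicates 1 to 3 it was at 113.3, 115.0 and 88.4 CPM. It was the only member whose Ezh2 libraries were all below the GFP libraries. The log2 fold change was -0.09 ± 0.05 over 5 libraries (adjusted p = 0.242, edgeR) and -0.18 ± 0.09 over 6 (adjusted p = 0.239). The 95% interval was -0.20 to 0.01 over 5 libraries and -0.38 to 0.02 over 6. The room it leaves for a fall thus depends on whether Ezh2 replicate 3 is included.

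**Figure D3:**
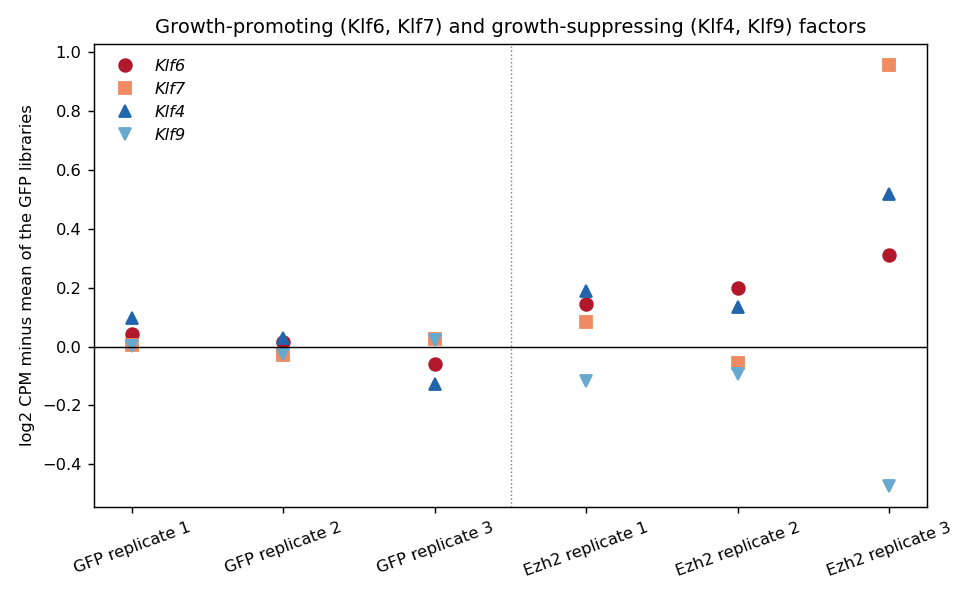
Log2 CPM of *Klf6*, *Klf7*, *Klf4* and *Klf9* in each of the 6 libraries (horizontal axis), each minus its mean over the 3 GFP libraries (vertical axis). In Ezh2 replicates 1 and 2 the 4 genes lie close to the control mean, and in Ezh2 replicate 3 they spread apart, with *Klf7* (32.7 CPM) at the top and *Klf9* (88.4 CPM) at the bottom.

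Both pairs were then set against each other. The mean log2 CPM of *Klf6* and *Klf7* minus that of *Klf4* and *Klf9* was 1.02, 1.04 and 1.08 in GFP replicates 1 to 3 and 1.12, 1.10 and 1.66 in Ezh2 replicates 1 to 3. The difference was thus higher in every Ezh2 library than in every GFP library, but Ezh2 replicates 1 and 2 lay just above the highest control, and most of the separation was in Ezh2 replicate 3. The mean was 1.04 ± 0.03 (SD, n = 3) in the GFP libraries and 1.11 ± 0.02 (SD, n = 2) in Ezh2 replicates 1 and 2. In fitted log2 fold changes over 5 libraries, the growth-promoting pair averaged 0.10 and the growth-suppressing pair 0.04. Over all 6 libraries the averages were 0.36 and 0.08. A score over chosen members was given no test, and its size was set mostly by *Klf7* in Ezh2 replicate 3.

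The remaining members did not pass the test. *Klf3*, a repressor that recruits CtBP, ranged from 104 to 109 CPM in the GFP libraries and was at 113, 108 and 87.8 CPM in Ezh2 replicates 1 to 3. Its log2 fold change was 0.07 ± 0.05 over 5 libraries and -0.01 ± 0.08 over 6. Its exons share 404 bases with the antisense gene *Gm20033*, which had at most 120 counts in a library, and whether counting used the strand is not given in the sources used here. *Klf13*, a repressor that recruits Sin3A, was at 122 to 127 CPM in the GFP libraries and at 133, 131 and 119 CPM in Ezh2 replicates 1 to 3, with a log2 fold change of 0.09 ± 0.05 (adjusted p = 0.242, edgeR, 5 libraries). *Klf16*, another Sin3A-recruiting repressor, was at 8.78 to 10.9 CPM in the GFP libraries and at 11.5, 9.62 and 7.42 CPM in Ezh2 replicates 1 to 3. Its fitted change was 0.06 ± 0.14 over 5 libraries and -0.06 ± 0.17 over 6. *Klf5* had only 14 to 28 counts per library, 0.43 to 0.92 CPM, and its 95% interval, -1.37 to 0.81 on the log2 scale, did not exclude a change of 1.5-fold in either direction at this depth.

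**Figure D4:**
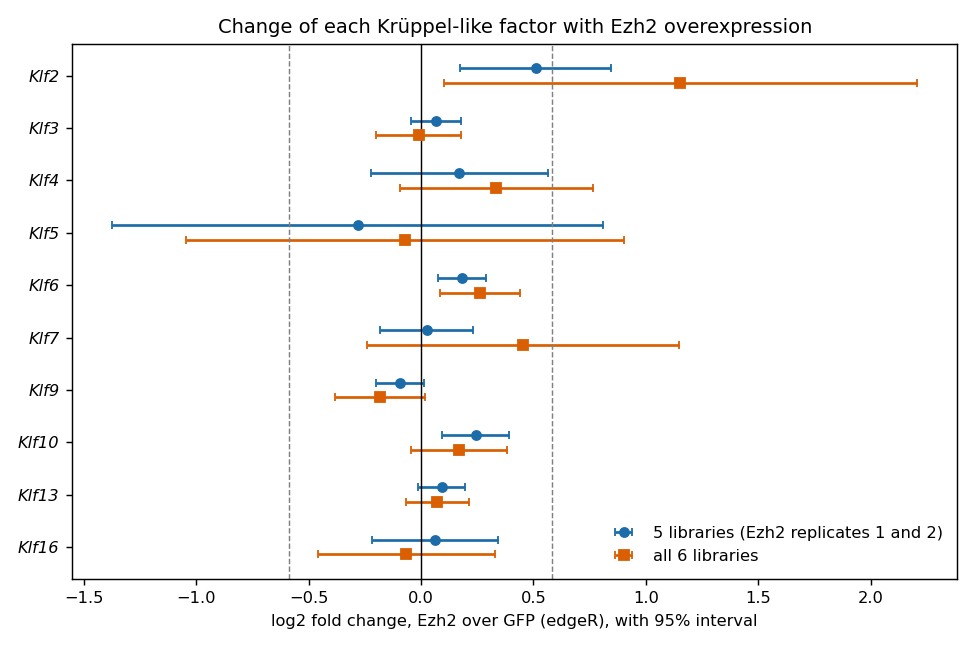
Log2 fold change of Ezh2 over GFP for each member (horizontal axis) with its 95% interval, from edgeR with 5 libraries (blue circles) and with all 6 (orange squares). Dashed lines mark a 1.5-fold change; the circles of *Klf2*, *Klf6* and *Klf10* have intervals above 0, and only *Klf2* passes the dashed line with 6 libraries (1.15).

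Separation of the groups gave a similar picture. Over 5 libraries, 5 members were higher without overlap (*Klf2*, *Klf4*, *Klf6*, *Klf10* and *Klf13*), beside 21.5% of all tested genes, and 1 was lower (*Klf9*), beside 23.4%. Over 6 libraries, 3 members were higher without overlap (*Klf2*, *Klf4* and *Klf6*), beside 14.9%, and 1 was lower (*Klf9*), beside 19.3%. Ezh2 replicate 3 lay outside the range of all other libraries for 9 of the 10 members, above for 4 and below for 5, beside 64.2% of all tested genes. It was over 1.5 times the highest other library for 2 of 10 (*Klf2* and *Klf7*), beside 5.81%. The median log2 fold change of the members was 0.08 over 5 libraries and 0.12 over 6, beside -0.01 and 0.01 over all tested genes.

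Genes that act with or around the KLFs were described next. Of the 16 other Klf and Sp genes, 11 were tested over 5 libraries. By edgeR 0 were called, beside 3.8% of all genes, and 4 had an unadjusted p under 0.05. At the adjusted p alone 0 were higher and 2 lower, beside 7.68% lower. *Klf15*, a glucocorticoid-induced repressor, was at 44.1, 45.1 and 44.4 CPM in the GFP libraries and at 35.3, 34.6 and 31.5 CPM in the Ezh2 libraries. It was lower in every Ezh2 library, with a log2 fold change of -0.34 ± 0.07 (adjusted p = 0.00127, edgeR) that held over 6 libraries (adjusted p = 0.0316). *Klf12*, a CtBP-recruiting repressor, fell by 0.39 ± 0.10 on the log2 scale (adjusted p = 0.00393, edgeR), and over 6 libraries its adjusted p was 0.157. The markers of Müller glia were lower in the same libraries. Their sum was 16820 to 17448 CPM in the GFP libraries and 13033, 13305 and 10419 CPM in Ezh2 replicates 1 to 3. At the adjusted p 4 of 4 were lower over 5 libraries, beside 7.68% of all genes. Over 6 libraries 2 of 4 were lower, beside 5.78% of all genes in either direction. Ezh2 replicate 3 was the lowest library for the glial sum, for *Klf9* and for *Klf15*, whereas *Klf12* was higher there (19.8 CPM) than in Ezh2 replicates 1 and 2 (17.7 and 17.3 CPM). The part of Müller glia in these values was not tested.

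Most KLF cofactors did not pass the test. By edgeR 0 of 12 tested genes were called, beside 3.8% of all genes, and 6 had an unadjusted p under 0.05, beside 29.3%. At the adjusted p 2 were higher and 1 lower, beside 10.1% and 7.68%. *Wwp1*, a ubiquitin ligase that binds KLFs, rose by 0.29 ± 0.08 on the log2 scale (adjusted p = 0.00656, edgeR). *Fbxw7*, a subunit of another ligase that degrades KLFs, fell by 0.20 ± 0.06 (adjusted p = 0.0206). Over 6 libraries neither passed, with adjusted p values of 0.125 and 0.167. Of 15 genes upstream of KLFs, such as the MEK5 and ERK5 kinases, MEF2 factors and receptors for glucocorticoids, thyroid hormone and TGF-beta, 0 were called by edgeR and 5 had an unadjusted p under 0.05. At the adjusted p 2 were higher and 2 lower, beside the same 10.1% and 7.68% of all genes. The lower ones were the hormone receptor genes *Nr3c2* (-0.31 ± 0.07, adjusted p = 0.00163, edgeR) and *Thrb* (-0.21 ± 0.07, adjusted p = 0.0406). Over 6 libraries their adjusted p values were 0.0472 and 0.122. The higher ones were both TGF-beta receptors. *Tgfbr2* rose by 0.36 ± 0.05 (adjusted p = 4.42e-06, edgeR) and *Tgfbr1* by 0.27 ± 0.05 (adjusted p = 0.000305), and over 6 libraries the adjusted p values were 0.0114 and 0.0538. Both receptors were above all GFP libraries in all 3 Ezh2 libraries. *Klf10*, the TGF-beta-inducible member, was above all GFP libraries in Ezh2 replicates 1 and 2 and below all of them in Ezh2 replicate 3. Any part of TGF-beta in the *Klf10* values was not tested.

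Among 5 glucocorticoid target genes, 1 was called, higher, beside 2.52% of all genes called higher. It was *Sgk1*, a kinase, which rose by 0.79 ± 0.08 (adjusted p = 1.6e-08, edgeR). A further 2 were lower at the adjusted p, beside 7.68% of all genes, and the median log2 fold change of the list was -0.17. Any part of glucocorticoids in the *Klf9* values was not tested. Of 9 known partners and targets of KLFs in axon growth, 8 were tested and 2 were called, both higher, beside 2.52% of all genes called higher. At the adjusted p alone 2 were higher and 2 lower, beside 10.1% and 7.68% of all genes, and the median log2 fold change was -0.02. *Socs3*, the inhibitor of STAT3 signaling, was at 96.5 to 107 CPM in the GFP libraries and at 182, 183 and 192 CPM in the Ezh2 libraries. Its log2 fold change was 0.83 ± 0.05 (adjusted p = 1.34e-12, edgeR). *Cdkn1a*, the cell cycle inhibitor p21 and a target of *Klf4* and *Klf6*, rose by 0.69 ± 0.13 (adjusted p = 0.000163, edgeR). Both were called over 6 libraries too.

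Among 7 known *Klf2* targets in T cells and endothelium, *Thbd*, the endothelial anticoagulant thrombomodulin, was called over 5 libraries. It was at 5.89, 4.55 and 4.59 CPM in the GFP libraries and at 8.04, 7.25 and 3.42 CPM in Ezh2 replicates 1 to 3. Ezh2 replicates 1 and 2 were above all GFP libraries and Ezh2 replicate 3 was below them. The log2 fold change was 0.62 ± 0.17 over 5 libraries (adjusted p = 0.011, edgeR) and 0.34 ± 0.29 over 6 (adjusted p = 0.484). Other targets went both ways over 5 libraries. *Itgb7* rose by 0.30 (adjusted p = 0.000462, edgeR) and *Il7r* by 0.26 (adjusted p = 0.0247), while *S1pr1* fell by 0.20 (adjusted p = 0.0105). *Ccr7* and *Nos3* did not pass, and over 6 libraries none of these genes passed. Any link between *Klf2* and these genes was not tested.

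Some KLFs behave as immediate early genes, so that class was set beside them. Of 16 immediate early genes, 10 were called over 5 libraries, all higher, beside 2.52% of all genes called higher, and 10 were called higher over 6 libraries, beside 1.62%. *Fos* rose by 0.99 ± 0.05, *Junb* by 0.88 ± 0.05, *Egr1* by 0.95 ± 0.06 and *Ier2* by 1.11 ± 0.07 on the log2 scale. Their adjusted p values ranged from 1.26e-14 to 1.27e-12 (edgeR). The summed level of the class was 1143 to 1254 CPM in the GFP libraries and 2162, 1988 and 2202 CPM in Ezh2 replicates 1 to 3. The sum of macrophage markers was also higher in all 3 Ezh2 libraries. It was 66.9 to 75.2 CPM in the GFP libraries and 234, 258 and 220 CPM in Ezh2 replicates 1 to 3. Most of this sum was *Stab1*, at 55.4, 64.4 and 62.2 CPM in the GFP libraries and at 218, 242 and 207 CPM in Ezh2 replicates 1 to 3. Of 3 tested, 2 were called higher (*Stab1* and *Mrc1*), beside 2.52% of all genes. *Lyve1* went the other way, with a log2 fold change of -0.67, and did not pass. Of 3 astrocyte markers, *Gfap*, which also marks reactive glia, rose by 1.01 on the log2 scale and was called, beside 2.52% of all genes. *Aqp4* fell by 0.22 (adjusted p = 0.00324, edgeR), and *Pax2* did not pass. The part of macrophages and glia in the values of the class was not tested. All 3 Ezh2 libraries were above all GFP libraries for the sum of the class and for *Klf2*, *Klf4* and *Klf6*. Such a separation was seen in 14.9% of all tested genes. *Klf4* did not pass the test, and *Klf10* was below all GFP libraries in Ezh2 replicate 3. The members' own changes over 5 libraries ran from -0.28 to 0.51 on the log2 scale, with a median of 0.08. Those of the 16 class genes ran from -0.14 to 1.22, with a median of 0.67. The ranges thus overlapped, and *Fos*, *Junb*, *Egr1* and *Ier2* were named for having the smallest p. Any link between the rise of the class and the members was not tested.

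Last, the genes whose profile over the 6 libraries lay nearest to each factor of the growth pairs were listed among 15463 genes, by the root mean square difference of log2 CPM centred on each gene's mean. For *Klf4* these were *Parp1*, *Nifk* and *Naca* (0.025 to 0.034), and for *Klf6* they were *Fbxo22*, *Cab39* and *Retreg1* (0.015 to 0.023). *Klf7* had *Wdr18*, *Cldnd1* and *Cd200* (0.040 to 0.047). *Klf9* had *Osmr*, *Gprin2* and *Hgsnat* (0.017 to 0.020). The 6 libraries share a high or low Ezh2 replicate 3 in many genes, so such likeness is a description only.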

How the data were processed

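RNA-Seq was performed on live CD90.2-positive retinal cells, with RNA from 3 AAV2-*GFP* and 3 AAV2-*Ezh2* samples made into stranded total RNA libraries. Per the labels, the submitters' processing notes name STAR 2.7.0d and GRCm38. The counting program, annotation release and strand setting are not given in the sources used here. The authors deposited raw read counts per Ensembl gene, and all 6 columns of counts matched samples by their labels. Of 55573 identifiers, 55480 matched GENCODE M21, which gave symbols, positions and exon lengths.

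Total counts were 30569933 to 35971192, and 3 counts, the limit that a count of 0 allows, corresponded to 0.0834 to 0.0981 CPM (counting error only). Genes were kept by filterByExpr, TMM factors set the scale, and the robust quasi-likelihood test of edgeR 4.0.16 (R 4.3.3) was fitted over all kept genes with group as the only term. P values are two-sided and adjusted by Benjamini-Hochberg over all tested genes. A call needed an adjusted p under 0.05 and a fold above 1.5. SE values come from the F statistic, and intervals from the test's t distribution. Ezh2 replicate 3 was left out because the study excluded 1 Ezh2 library and its heatmap shows the other 5, so its identity is inferred. Per-library log2 CPM used a prior count of 2.

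The members and gene lists were chosen with earlier results of these data known. Named genes are the members and *Ezh2*. From each other list they are the genes called, or the 4 with the smallest p where more were called, or the 2 with the smallest p where none was. A result among the *Klf2* targets is not reported here. Marker lists are given as summed CPM, and further markers were named after their values were seen. The 3 nearest profiles needed a mean of 50 counts. Other settings tried were the full set of 6 libraries, single libraries removed, a block on the replicate number, limma-voom (limma 3.58.1), DESeq2 1.42.0, other filters and scaling factors, and glmTreat. The fit without the robust option was chosen after seeing the data. Figures were drawn with matplotlib 3.10.9.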

Additional observations from a re-analysis of the deposited data

Results flagged for a closer look

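*Klf2* and *Klf7* drew attention for their level in Ezh2 replicate 3, the library outside the comparison of 5 libraries. *Klf2* reached 21.7 CPM there, and the highest of the other 5 libraries had 9.01 CPM. *Klf7* reached 32.7 CPM there, beside 17.8 CPM in the highest of the others. Both exceeded 1.5 times every other library, as 5.81% of all tested genes did. In the same library the T cell markers summed to 833 CPM, above 389 to 525 CPM in the others, and single markers differed. *Cd2* was highest there at 189 CPM, beside 41.9 to 53.0 CPM, *Cd3g* at 83.4 CPM was close to the 81.5 and 77.7 CPM of Ezh2 replicates 1 and 2, and *Cd8a* at 37.9 CPM was below their 44.5 and 46.2 CPM. The part of T cells in the *Klf2* and *Klf7* values of this library was not tested.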

How the results depend on the processing

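The count of members called stayed at 0 in every alternative except without GFP replicate 2 of the 5 libraries, where *Klf2* was called (range with a library left out 0 to 1). The members at an adjusted p alone numbered 3 and fell to 0 with all 6 libraries. With a library left out they ranged from 0 to 3. All genes called numbered 770, and 498 with all 6 libraries, 180 with glmTreat, and 110 to 794 with a library left out. The promoting minus suppressing difference of log2 fold changes, 0.07, became 0.28 with all 6 libraries and ranged from 0.051 to 0.38 with a library left out. The replicate number as a block gave 722 calls over 5 libraries and 396 over 6, left 0 members at the adjusted p in both, and gave a difference of 0.25 over 6. Over 5 libraries GFP replicate 3 was alone in its block, so the members' fold changes were close to those without GFP replicate 3. Same-numbered samples did not deviate together (correlations -0.027, -0.022 and -0.034). These deviations were taken from group means that include the unlike Ezh2 replicate 3, so the check cannot exclude a pairing. Directions turned for *Klf3* (-0.011 with all 6, -0.015 with the block over 6, -0.064 to 0.085 with a library left out), *Klf16* (-0.065, -0.073 and -0.20 to 0.18), *Klf7* (-0.010 with upper quartile factors, which moved the median of all genes to -0.043, and -0.031 to 0.65) and *Klf5* (-0.55 to 0.28). The median of the other Klf and Sp genes turned to -0.067 without Ezh2 replicate 1 (highest 0.086), and that of axon partners and targets to 0.013 without GFP replicate 1 (lowest -0.040). The cause was not tested. Where 1 Ezh2 library remained, it was assumed to vary like the GFP libraries. *Klf5* is limited by depth.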
